A study of Medicago truncatula with 9 samples.

Results

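The loci described here are the BAG domain protein locus Medtr8g028265 and the heat shock 70 kDa protein (HSP70) locus Medtr5g006180, 2 of the 36695 loci measured in mature seeds of Medicago truncatula. They were chosen by their measured FPKM: high in the wild type R108 and close to 0 in both mutants. Their levels, their changes and the remainder in the mutants are therefore a description and carry no test. Transcripts were measured by RNA sequencing in R108 and in the Tnt1 retrotransposon insertion lines NF10440 (hsfa9-1) and NF13157 (Mthsfa9-2, here hsfa9-2), both in the R108 background. Each genotype had 3 libraries of 50 seeds from different plants. All plants shared the same culture room with 16 h of light, per the labels' protocols. By the same protocols, all pods were dried at 43% relative humidity, and all seeds were kept at 20 °C until extraction. Each line stands for a single insertion allele, and the insertion's position in the gene is not given in the sources used here. No locus is described as HSFA9, so the targeted gene was not checked.

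HSP70 proteins bind unfolded stretches of other proteins and release them in a cycle driven by ATP. BAG domain proteins are co-chaperones that bind the ATPase domain of HSP70 and promote the exchange of its nucleotide, which lets the client protein go. HSFA9 is a heat stress transcription factor of seeds, and factors of this class bind heat shock elements in the promoters of chaperone genes, which in seeds are switched on during maturation without heat.

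Both names rest on the descriptions in the deposited table, and each locus has 1 transcript model. For Medtr8g028265 the table also lists chaperone binding and calmodulin binding as molecular functions and plasmodesma as the compartment. Its KEGG entry reads fumarylacetoacetase, an enzyme of tyrosine breakdown, and the same entry is attached to 3 of the 10 other BAG loci. For Medtr5g006180 the table lists ATP binding and 2-alkenal reductase [NAD(P)] activity as molecular functions, and oxidation-reduction process as the biological process. Its KEGG entry reads "heat shock 70kDa protein 4", which in animals names a relative of HSP70 that acts as a nucleotide exchange factor. The protein accession that the table gives for Medtr8g028265 belongs to LOC25500781 on chromosome 8 in RefSeq's assembly MtrunA17r5.0-ANR, and that for Medtr5g006180 had no match in the gene table used.

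Summed FPKM, the fragments per kilobase of transcript scaled to the mapped fragments of a library, lay between 922801 and 981285, and between 16220 and 16606 loci reached 1 FPKM. The labels state an average of 24 M reads per library; the depth of single libraries is unknown, since no read counts were used. Seed transcripts were abundant in every library: 12 vicilin and legumin loci summed to 11315 to 12210 FPKM in R108, 6177 to 9648 in hsfa9-1 and 11335 to 13101 in hsfa9-2. The 6 oleosin loci summed to 3752 to 4681, 6234 to 7464 and 7180 to 9411 FPKM in the same order. The 82 late embryogenesis abundant loci summed to 42663.4 to 46976.5, 41701.4 to 51259.8 and 47277.2 to 60019.7. Of these seed lists, only the oleosin sums lay apart from R108 in both mutants, and they were higher. The vicilin and legumin sums were lower in hsfa9-1 and overlapped R108 in hsfa9-2. The late embryogenesis abundant sums overlapped R108 in hsfa9-1 and were higher in hsfa9-2. Marker lists of other tissues moved with genotype too. The 29 chlorophyll a/b-binding loci, of which 15 were tested and none was at 0 throughout, summed to 699 to 822, 166 to 192 and 153 to 190 FPKM in R108, hsfa9-1 and hsfa9-2. In R108 most of this sum came from 1 of these loci, Medtr5g098780, at 528.39, 647.83 and 605.06 FPKM. That locus had 7.22 to 7.67 FPKM in hsfa9-1 and 6.25 to 26.69 in hsfa9-2, so the lower sums of the mutants mainly reflect it. The 32 seed coat flavonoid loci, 8 tested and 3 at 0 throughout, summed to 90.2 to 113, 215 to 231 and 220 to 263. The 86 nodule-specific loci, 14 tested and 21 at 0 throughout, summed to 755 to 960, 2133 to 2414 and 2346 to 3852, and the 8 leghemoglobin loci stayed at or below 21.8 in sum in every library. The part of tissue make-up in the results below was not tested. In whole seeds, fewer cells of a type and less RNA per cell cannot be told apart. Within hsfa9-2, replicate 1 stood apart from replicates 2 and 3 at loci that were low in the mutants, as given below.

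Medtr8g028265 was a high-level transcript of wild-type seeds and stood at a few FPKM in the mutants. Its level was 417.42, 417.03 and 441.85 FPKM in R108 replicates 1, 2 and 3, which is 425 ± 14.2 (SD, n = 3) and places it 313th to 342nd of all loci in those libraries. In hsfa9-1 it was 1.85, 1.63 and 2.18 FPKM (1.89 ± 0.277), at ranks 13966 to 14905. In hsfa9-2 it was 21.51, 2.70 and 3.28 FPKM (9.16 ± 10.7), at ranks 6178 to 13197. All R108 libraries lay above all mutant libraries, as they did at 36.1% (hsfa9-1) and 38.6% (hsfa9-2) of the tested loci, and the highest mutant value was hsfa9-2 replicate 1. The ratio of the R108 mean to the mutant mean was 225 for hsfa9-1 and 46.4 for hsfa9-2, and 142 for hsfa9-2 without replicate 1. As differences of mean log2(FPKM + 1), a scale that understates ratios at low levels, the changes were −7.21, −5.91 and, without that library, −6.74.

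Medtr5g006180, the HSP70 locus, followed the same course from a lower wild-type level. It measured 221.76, 265.43 and 237.17 FPKM in the R108 libraries (241 ± 22.1), at ranks 556 to 668. The hsfa9-1 libraries held 0.85, 1.30 and 1.05 FPKM (1.07 ± 0.225), and the hsfa9-2 libraries 9.19, 1.13 and 1.11 (3.81 ± 4.66). Here too the wild type and the mutants did not overlap, and hsfa9-2 replicates 2 and 3 lay within the range of hsfa9-1. The R108 mean was 226 times that of hsfa9-1, 63.4 times that of hsfa9-2, and 216 times that of hsfa9-2 without replicate 1. The log2 changes were −6.88, −6.08 and −6.83 in the same order.

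**Figure D1:**
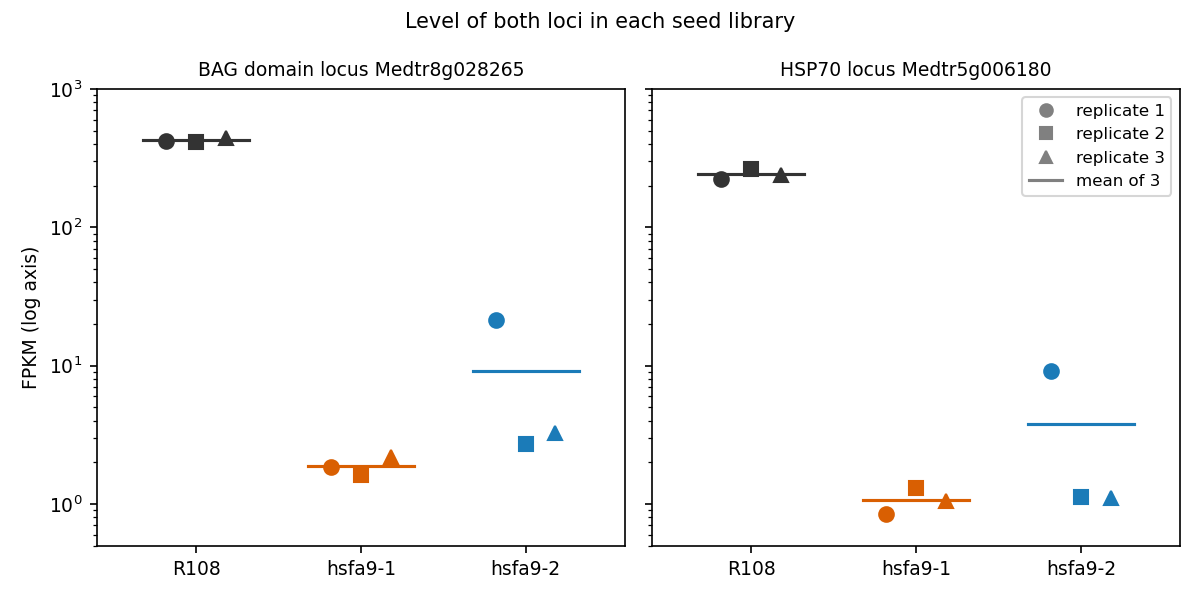
FPKM (log axis) of the BAG domain locus Medtr8g028265 and the HSP70 locus Medtr5g006180 in each of the 9 seed libraries, with symbols for replicates 1 to 3 and a line at the mean of 3. R108 libraries sit between 221.76 and 441.85 FPKM, and mutant libraries at or below 3.28 FPKM except hsfa9-2 replicate 1, at 21.51 and 9.19.

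Set against their own wild-type means, the 2 loci kept like shares of transcript in hsfa9-1, while in hsfa9-2 the share of the BAG domain locus was the higher in all 3 libraries. In hsfa9-1 the share was 0.443% ± 0.0651 for the BAG domain locus and 0.442% ± 0.0934 for the HSP70 locus, a difference smaller than the spread between libraries. In hsfa9-2 replicate 1 the shares were 5.06% and 3.81%, in replicate 2 they were 0.635% and 0.468%, and in replicate 3 they were 0.771% and 0.460%. Replicate 1 thus held 7.19 and 8.21 times the mean of the other two hsfa9-2 libraries. The BAG locus stayed the higher of the pair in every library, by a ratio in FPKM of 1.77 ± 0.174 in R108, 1.84 ± 0.506 in hsfa9-1 and 2.56 ± 0.341 in hsfa9-2. Single libraries ranged from 1.57 to 1.88, 1.25 to 2.18 and 2.34 to 2.95 in that order. The hsfa9-2 range overlaps neither of the others, while those of R108 and hsfa9-1 overlap. Because this ratio is built from the levels that chose the loci, it is given without a test.

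The raised remainder of hsfa9-2 replicate 1 was also seen outside the pair. A further 17 loci had an R108 mean of 20 FPKM or more and kept 2% or less of it in hsfa9-1. In hsfa9-2 replicate 1 these kept between 2.11% and 7.74% (median 5.09%), a range that holds both chaperone loci. Their medians were 0.596% in replicate 2, 0.673% in replicate 3, and from 0.720% to 1.16% over the libraries of hsfa9-1.

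By the smaller of the falls in the 2 mutants, Medtr5g006180 ranked 1 and Medtr8g028265 ranked 3 among the 17508 tested loci, those at 1 FPKM or more in 3 or more libraries. Among the 797 loci with an R108 mean of at least 200 FPKM they were the first and second. The next was the light-harvesting complex I chlorophyll a/b-binding protein Medtr5g098780, with 594 FPKM in R108 and 1.25% and 2.30% of that in hsfa9-1 and hsfa9-2. The bidirectional sugar transporter Medtr1g029380 came after it, with 0.960% and 2.90%. The 2 chaperone loci kept 0.443% and 0.442% in hsfa9-1 and 2.15% and 1.58% in hsfa9-2, so the step from the pair to the next locus was small in hsfa9-2. The ranks use the levels that chose the pair. On the log2(FPKM + 1) scale a locus of low R108 level cannot fall as far. By share kept, the small heat shock protein Medtr3g092460 (92.0 FPKM in R108) was lower than both. It kept 0.0870% to 0.348% over the hsfa9-1 libraries and 3.20%, 0% and 0% in the hsfa9-2 libraries.

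By the distance used here, which is computed from the levels that chose the pair, each was the other's closest match in profile. Likeness was measured as the root mean square difference, over the 9 libraries, of log2(FPKM + 1) taken relative to the R108 mean of each locus, among 6556 other loci with at least 20 FPKM in R108. The pair differed by 0.269, with a Pearson correlation of 0.997 over the 9 libraries, whereas the median candidate differed from Medtr8g028265 by 5.31 and from Medtr5g006180 by 5.22. The correlation mainly reflects R108 against the mutants, and 16 candidates reached 0.99 with the BAG locus and 47 with the HSP70 locus.

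The same 5 loci came next for both, in the same order. The cytosolic class II small heat shock protein Medtr8g022720, of a family that holds unfolding proteins in solution, differed by 0.339 from the BAG locus and by 0.273 from the HSP70 locus. Its values were 118.33, 159.78 and 149.11 FPKM in R108, 0.13, 0.39 and 0.13 in hsfa9-1, and 8.82, 0.13 and 0 in hsfa9-2. The class II small heat shock protein Medtr3g092460 (0.551 and 0.390) fell to between 0.08 and 0.32 FPKM in hsfa9-1 from 92.0 ± 3.68. The sugar transporter Medtr1g029380 (0.627 and 0.522) and the chlorophyll a/b-binding protein Medtr5g098780 (0.691 and 0.534) followed. Equilibrative nucleoside transporter 6 (Medtr2g011600) was the fifth (1.01 and 0.902), and it measured 63.1 ± 5.22 FPKM in R108 and 0.25 ± 0.05 in hsfa9-1. In each of the 5, hsfa9-2 replicate 1 was the highest mutant library. By Pearson correlation the pair were not each other's closest: Medtr5g006180 reached 0.9987 with Medtr5g098780, and Medtr8g028265 reached 0.9974 with Medtr1g029380, beside 0.9969 between the pair. Ranked that way, 2 of these 5 stayed among the closest 5 of the BAG locus and 3 among those of the HSP70 locus.

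**Figure D2:**
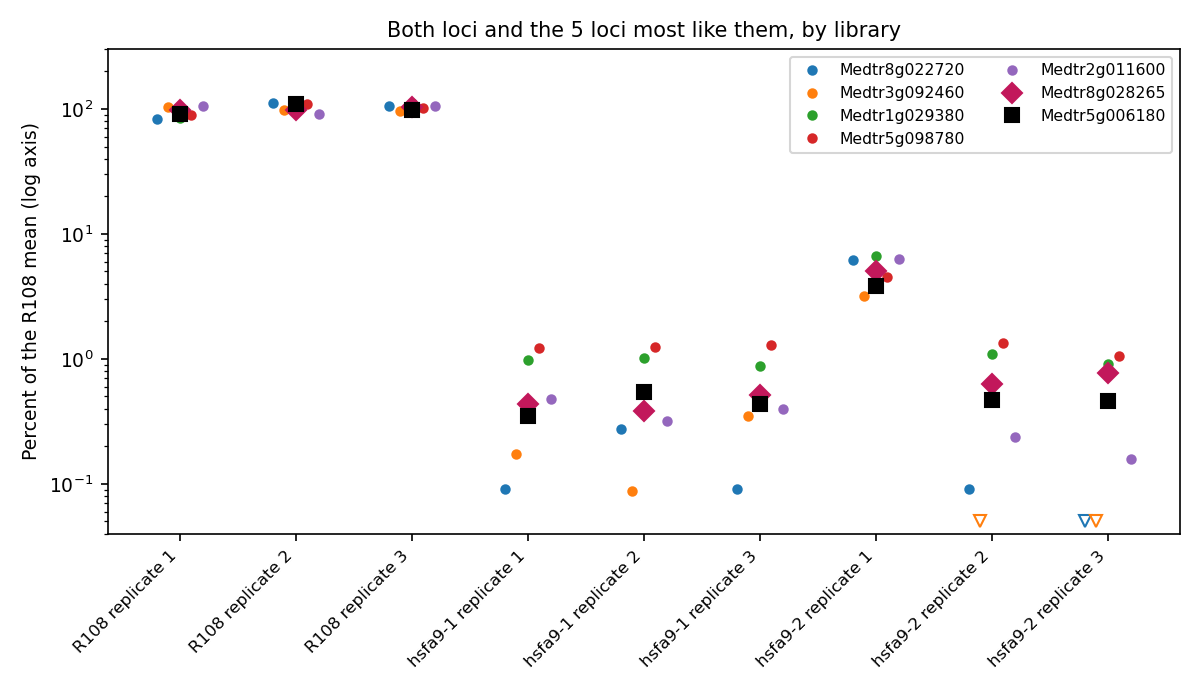
Level of the 2 chaperone loci (large symbols) and of the 5 loci most like them (small dots), as a percent of each locus's R108 mean (log axis), in the 9 libraries. Open triangles at the bottom mark libraries in which a locus is listed at 0; the chaperone loci are at 5.06% and 3.81% in hsfa9-2 replicate 1 and below 1% in the other mutant libraries.

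The other BAG loci, which the choice of the pair did not use, moved in both directions and far less. The BAG domain locus was by far the leading one of 11 in R108, where it held 83.9% ± 1.09 of their summed FPKM, and the next, the BCL-2-associated athanogene locus Medtr4g017810, had 18.85 ± 1.56 FPKM. In hsfa9-1 it ranked 9 of 11 and held 1.69% ± 0.159. In hsfa9-2 its share was 15.4% in replicate 1 and 1.66% and 2.25% in the others. The summed FPKM of the family was 507 ± 12.3 in R108, 111 ± 6.12 in hsfa9-1 and 149 ± 12.1 in hsfa9-2.

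**Figure D3:**
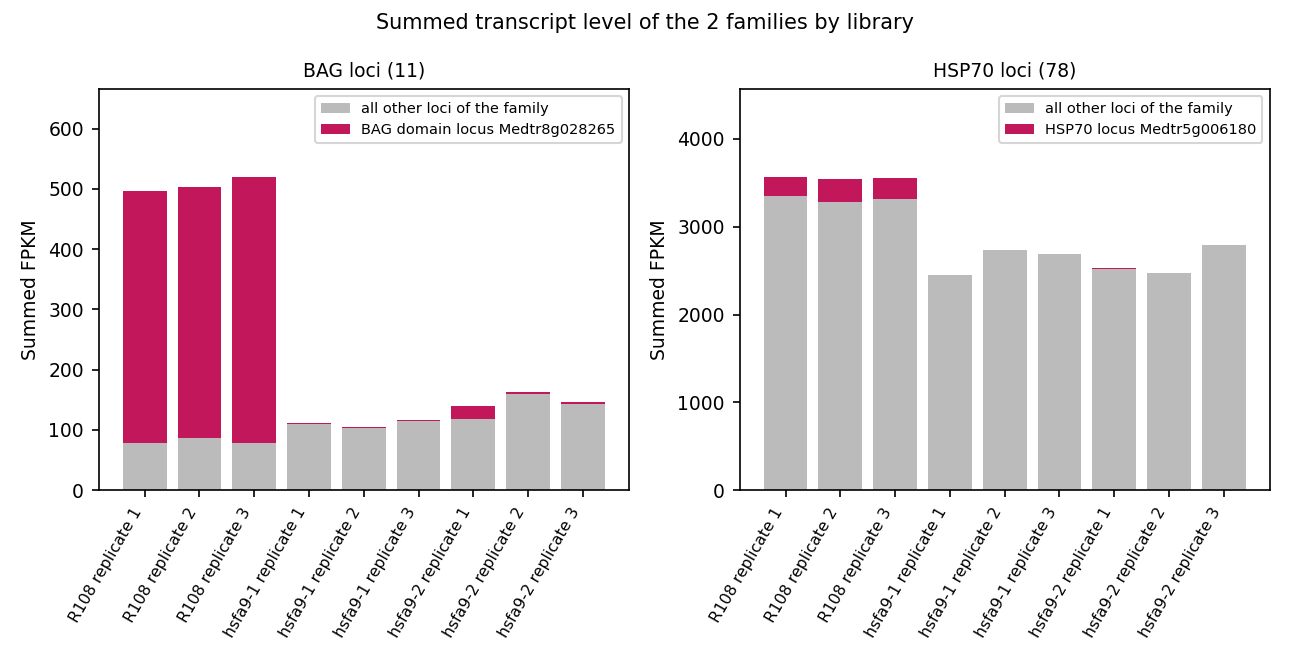
Summed FPKM of the 11 BAG loci (left) and the 78 HSP70 loci (right) in each library, as bars from 0, with the part of the BAG domain locus and of the HSP70 locus in colour. The coloured part is 83.9% of the BAG bar and 6.79% of the HSP70 bar in R108 on average; in the mutants it is at most 15.4% of the BAG bar (hsfa9-2 replicate 1) and 0.363% of the HSP70 bar.

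Of the 8 other BAG loci that could be tested, 5 rose and 2 fell in hsfa9-1, and 4 rose and 2 fell in hsfa9-2 (limma, adjusted p under 0.05 over all tested loci). Of all tested loci, 59.5% were called in hsfa9-1 (27.6% higher, 31.9% lower) and 62.3% in hsfa9-2 (25.8% higher, 36.5% lower). The direction of these shares depended on scaling. After median centring, 5531 loci were higher and 4888 lower in hsfa9-1, and 5634 and 5070 in hsfa9-2. The 2 comparisons share the R108 libraries. Median log2 changes of the BAG loci were 0.28 and 0.22, beside −0.04 and −0.10 over all tested loci. The rise count in hsfa9-1 rested on single libraries: without R108 replicate 1, R108 replicate 3 or hsfa9-1 replicate 3, 2 rises and 2 falls were left. The 2 untested BAG loci did not exceed 0.79 FPKM in any library.

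The largest rise was that of BAG family molecular chaperone regulator 5 (Medtr2g025690), one of the loci with the fumarylacetoacetase entry. It measured 13.33, 15.24 and 14.57 FPKM in R108, 52.49, 42.87 and 51.54 in hsfa9-1, and 57.50, 97.04 and 74.21 in hsfa9-2, with no overlap of either mutant with R108. Such separate ranges with the mutant higher were found at 31.0% (hsfa9-1) and 27.8% (hsfa9-2) of the tested loci. The log2 changes were 1.70 ± 0.16 (SE, limma adjusted p = 7e-06) and 2.30 ± 0.16 (limma adjusted p = 6.77e-07). It was the most abundant BAG locus of both mutants. The 2 falls were at the BAG domain loci Medtr7g022490 and Medtr7g022790, which carry the same KEGG entry as the BAG domain locus of the pair. Medtr7g022490 went from 12.65 ± 1.26 FPKM to 3.97 ± 1.12 in hsfa9-1 (log2 change −1.48, limma adjusted p = 8.87e-05) and 4.78 ± 1.33 in hsfa9-2 (−1.26, 0.000261). Medtr7g022790 went from 9.54 ± 0.825 to 2.57 ± 1.2 (−1.62, limma adjusted p = 0.000118) and 3.73 ± 0.315 (−1.16, 0.00115). Reads of similar copies may have been divided between loci by the authors' quantification.

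The remaining 5 tested BAG loci have the KEGG entry "BCL2-associated athanogene 1", and their changes were small. Medtr4g017810 rose by 0.27 in hsfa9-1 and 0.30 in hsfa9-2 on the log2 scale, Medtr7g069610 by 0.29 and 0.32, and Medtr1g101440 by 0.30 and 0.54. Medtr2g032910 rose by 0.63 in hsfa9-1 and had a log2 change of 0.15 in hsfa9-2 (limma adjusted p = 0.554). Medtr4g102740 was not called in either (−0.31 and 0.08, limma adjusted p = 0.164 and 0.737). Summed over the 10 loci without Medtr8g028265, the family had 78.4 to 86.8 FPKM in R108, 103 to 114 in hsfa9-1 and 118 to 160 in hsfa9-2. Neither mutant overlapped R108 in this sum, and the exact two-sided permutation test gave p = 0.1, the smallest that 3 against 3 libraries allow. The mean of that sum was higher by 27.8 FPKM in hsfa9-1 and by 58.8 in hsfa9-2, against the 425 FPKM of Medtr8g028265 in R108. Medtr2g025690 alone was higher by 34.6 and 61.9 FPKM. The 9 loci left without it, a sum taken after these values were seen, had 63.8 to 71.5 FPKM in R108, 57.5 to 62.9 in hsfa9-1 and 60.3 to 68.4 in hsfa9-2.

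**Figure D4:**
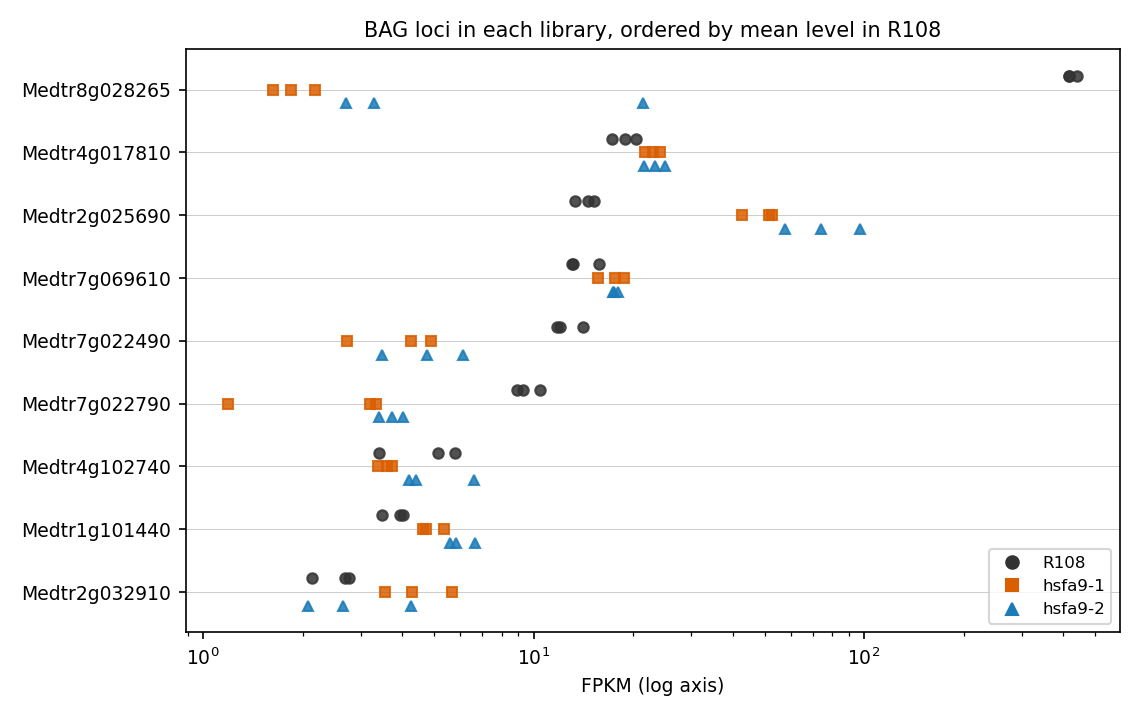
FPKM (log axis) of the BAG loci that were tested and of Medtr8g028265 in each library, 1 row a locus and 1 symbol a library, coloured by genotype and ordered by R108 level. Medtr8g028265 drops from 417.03 to 441.85 FPKM to between 1.63 and 21.51, while Medtr2g025690 is higher in all mutant libraries (42.87 to 97.04) than in R108 (13.33 to 15.24).

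Among HSP70 loci the pair's member was 1 of several abundant ones. It ranked 6 of 78 by its R108 mean and held 6.79% ± 0.646 of the family's summed FPKM there, 0.0404% ± 0.00659 in hsfa9-1 and 0.150% ± 0.185 in hsfa9-2. Without it, the 77 loci left summed to 3279 to 3348 FPKM in R108, 2452 to 2730 in hsfa9-1 and 2478 to 2792 in hsfa9-2. Both mutants lay below R108 without overlap (exact two-sided permutation p = 0.1, the smallest possible). The mean sums differed from R108 by −691 and −719 FPKM, more than the 241 FPKM of Medtr5g006180 itself.

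Only 19 of the 77 passed the filter on low values, and the other 58 stayed at or below 0.87 FPKM in every library. Of the 19, 9 fell and 6 rose in hsfa9-1 and 12 fell and 6 rose in hsfa9-2 (limma), where 59.5% and 62.3% of all tested loci were called in either direction. All 9 falls and all 6 rises of hsfa9-1 were also called in hsfa9-2, where over all tested loci 93.9% of the falls and 84.8% of the rises were, with the same R108 libraries in both comparisons. In hsfa9-2 the count of rises was 5 under 12 of 19 alternatives. The count of falls there was 10 after median centring. With a library left out, 16 to 17 HSP70 loci were called in hsfa9-2, against 18 with all libraries. The median log2 changes were −0.28 and −0.40, beside −0.04 and −0.10 over all tested loci.

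The deepest falls were at HSP70 loci whose KEGG entries name proteins of the endoplasmic reticulum in animals. Medtr8g099795, with the entry for the HSP70 of that compartment (BiP), measured 70.95, 56.87 and 68.98 FPKM in R108, 7.49, 9.13 and 8.73 in hsfa9-1, and 8.98, 5.87 and 8.81 in hsfa9-2. Its log2 changes were −2.81 ± 0.15 (SE, limma adjusted p = 1.13e-07) and −2.92 ± 0.15 (limma adjusted p = 8.14e-08). Medtr8g099945, with the same entry, fell from 63.9 ± 5.02 FPKM to 14.8 ± 1.41 and 14.1 ± 2.96. Medtr3g081170, with the entry hypoxia up-regulated 1, fell from 48.4 ± 2.65 to 12.4 ± 0.762 and 11.8 ± 2.14. None of the 3 came near the loss of Medtr5g006180 at its hsfa9-1 share of 0.442%.

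Loci with the same KEGG entry as Medtr5g006180 did not move as a block. Medtr2g102180 measured 465.30, 476.41 and 452.71 FPKM in R108, 179.15, 208.12 and 188.80 in hsfa9-1 and 218.71, 202.38 and 213.13 in hsfa9-2. It fell by 1.27 and 1.13 on the log2 scale (limma adjusted p = 1.12e-07 and 2.26e-07). Medtr3g051300 rose from 28.9 ± 0.758 FPKM to 39.0 ± 0.815 and 36.9 ± 0.561. Medtr4g012050 had 100.1 ± 7.27, 103 ± 6.17 and 93.2 ± 2.08 FPKM and was not called in either mutant (limma adjusted p = 0.578 and 0.23). The other 7 loci with this entry were too low to test.

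The abundant cytosolic type loci split as well. Medtr4g130540, the most abundant HSP70 locus of R108, fell from 722 ± 7.74 FPKM to 259 ± 56.7 in hsfa9-1 (log2 change −1.50, limma adjusted p = 2.09e-05) and 416 ± 81.3 in hsfa9-2 (−0.81, 0.00147). The heat shock cognate locus Medtr7g099680 had 547 ± 18.8 FPKM in R108 and 535 ± 38.0 in hsfa9-1 (−0.03, limma adjusted p = 0.737), and was the most abundant HSP70 locus of both mutants. Its value of 476 ± 35.0 in hsfa9-2 (−0.20, limma adjusted p = 0.0373) was called under 8 of 19 alternatives and not after median centring (log2 change −0.08, limma adjusted p = 0.438). The heat shock cognate loci Medtr7g024580, Medtr7g024390 and Medtr4g063710 gave the largest rises in both mutants. The first rose from 129 ± 3.63 FPKM to 291 ± 3.33 and 233 ± 15.2, the second from 15.3 ± 0.753 to 29.7 ± 2.73 and 27.1 ± 2.26, and the last from 229 ± 8.85 to 430 ± 41.4 and 408 ± 47.9. Reads of near-identical HSP70 copies may have been divided between loci, so single values within this family are uncertain.

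**Figure D5:**
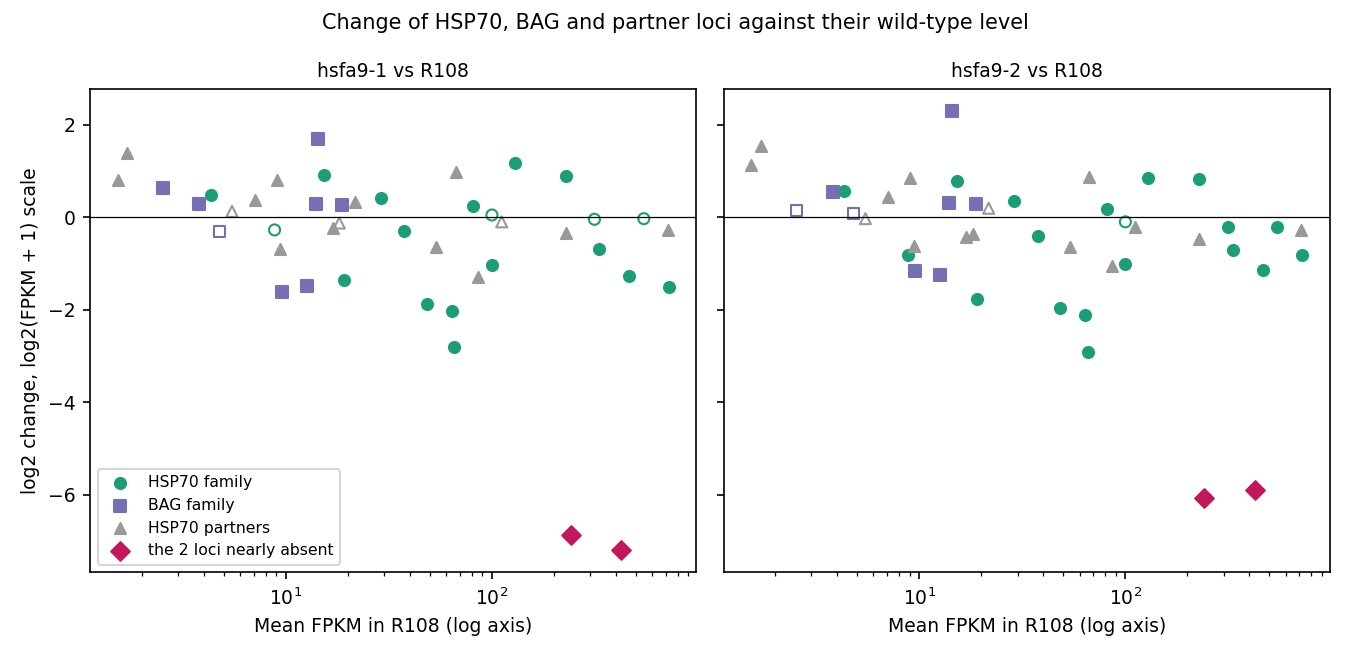
Log2 change against R108 (vertical) and mean R108 level (horizontal, log axis) of the tested HSP70, BAG and HSP70 partner loci in hsfa9-1 (left) and hsfa9-2 (right); filled symbols passed the limma threshold, open ones did not, and diamonds are Medtr8g028265 and Medtr5g006180, which carry no test. The diamonds lie between −7.21 and −5.91, and the lowest other locus, Medtr8g099795, at −2.81 and −2.92.

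Partners of HSP70 in its cycle also went both ways. Of 15 tested partner loci, 6 rose and 6 fell in hsfa9-1 and 5 rose and 8 fell in hsfa9-2, or 6 and 6 in hsfa9-2 after median centring. Over all tested loci 27.6% rose and 31.9% fell in hsfa9-1, and 25.8% and 36.5% in hsfa9-2. The Hsc70-interacting protein Medtr4g102390, a type that in animals steadies HSP70 in its ADP-bound state, rose from 66.9 ± 2.29 FPKM to 134 ± 5.35 and 124 ± 3.85. The putative HSP70-interacting protein Medtr2g067860 rose from 1.70 ± 0.26 to 6.09 ± 0.512 and 6.91 ± 0.811. The similarly described Medtr2g067870 rose to 4.35 ± 0.332 in hsfa9-2 from 1.53 ± 0.808 (log2 change 1.12, limma adjusted p = 0.00981), while its rise in hsfa9-1 (0.81, limma adjusted p = 0.0452) was called under 7 of 18 alternatives. Medtr7g059150, also described as an HSP70-interacting protein, fell from 86.0 ± 0.624 to 34.3 ± 2.24 and 41.0 ± 3.24, and Medtr2g090135 from 53.7 ± 2.39 to 33.9 ± 2.26 and 33.8 ± 2.74. SIL1 (Medtr3g080080), a nucleotide exchange factor of the endoplasmic reticulum, fell from 9.43 ± 1.35 to 5.47 ± 0.0656 and 5.72 ± 0.574. Of the 4 GrpE loci, exchange factors of organelle HSP70, 1 fell in hsfa9-1 and 3 in hsfa9-2, beside falls at 31.9% and 36.5% of all tested loci.

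Between the mutants few of the related loci were called. In hsfa9-2 against hsfa9-1, limma called 0 of 8 BAG loci, 1 of 19 HSP70 loci and 0 of 15 partner loci, where 1.12% of all tested loci were called (0.491% higher, 0.628% lower in hsfa9-2). At an unadjusted limma p under 0.05 there were 3, 6 and 3. The share of all tested loci at that looser cutoff is not given here. The 1.12% holds for adjusted p, so these counts cannot be set against it. The called locus, Medtr7g024580, was lower in hsfa9-2 by 0.32 on the log2 scale (limma adjusted p = 0.0367). Medtr4g130540 was higher in hsfa9-2 by 0.69 without overlap of the groups, as were 5.57% of tested loci (13.5% were lower without overlap), and was not called (limma adjusted p = 0.0907). Medtr2g025690 was higher by 0.60 (limma adjusted p = 0.129), and by 0.79 with adjusted p = 0.0214 without hsfa9-2 replicate 1. That was the only 1 of 19 alternatives in which it was called, and the adjusted p ranged up to 0.362.

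Loci with neighbouring ID numbers, which follow position along the chromosome, were compared to see whether the losses extended beyond the 2 loci. This comparison was added after the values of the pair were known. Of the 5 loci on either side of Medtr8g028265, 8 could be tested, and 5 fell and none rose in hsfa9-1, with 6 falls and no rise in hsfa9-2; over all tested loci 31.9% and 36.5% fell and 27.6% and 25.8% rose. They included the glyoxysomal malate synthase Medtr8g028225, an enzyme of the glyoxylate cycle, which fell from 1729 ± 133 FPKM to 233 ± 17.3 and 201 ± 55.2 (log2 changes −2.89 and −3.13). ABIL1-like Medtr8g028410 fell from 14.6 ± 2.29 to 2.41 ± 0.595 and 2.66 ± 0.493. The other 6 tested neighbours had log2 changes between −1.19 and 0.53. Among them, Medtr8g028190 was called lower in hsfa9-2 only, with a log2 change of −0.17 (limma adjusted p = 0.0199). The median change in hsfa9-2 over all tested loci was −0.10, and the neighbour counts were not recomputed after median centring. Around Medtr5g006180, 6 of 10 were tested, and 2 rose and 2 fell in hsfa9-1, with 2 rises and 3 falls in hsfa9-2, beside 59.5% and 62.3% of all tested loci called in either direction. The photosystem I subunit II Medtr5g006130 rose from 10.9 ± 1.71 to 26.3 ± 4.52 and 25.7 ± 0.867. The hypothetical protein Medtr5g006200, 2 numbers on, had 2.58, 1.84 and 2.23 FPKM in R108, was listed at 0 in all hsfa9-1 libraries, and had 0.37, 0 and 0 in hsfa9-2. These neighbours were named after their values were seen.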

How the data were processed

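The authors deposited FPKM values (with 2 decimals) per transcript model, 42631 models in all, and column names give the unit per the file headers. HISAT, HISAT2, Bowtie2 and RSEM are named without versions or roles in the submitters' processing notes. Build, annotation and filters: not given in the sources used here. Reads were 50 bp on BGISEQ-500, with a stated average of 24 M reads per library, per the labels. How FPKM were made limits precision at low levels, and no counts were used, so the depth of single libraries is unknown and count tests were not run.

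FPKM were summed over the models of a locus (36695 loci). The 17508 loci at 1 FPKM or more in 3 or more libraries were analysed as log2(FPKM + 1) in 1 linear model over all 9 libraries with limma 3.58.1 (R 4.3.3, statmod 1.5.0; trend and robust moderation). P-values were adjusted by Benjamini-Hochberg over all tested loci of each of 3 comparisons, with a threshold of 0.05. They weigh the difference of group means against the spread between libraries. The fit was tested on simulated data in which only a small part of the loci changed, unlike in these data. That check therefore does not cover how the calls depend on scaling. Python 3.11.15, pandas 2.3.3 and scipy 1.17.1 were used for the rest.

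The pair and the lists (BAG, HSP70 and HSP70 partner loci, by words in the descriptions) were chosen with earlier results of these data known. Named loci were all tested BAG loci, the 3 (partners 2) largest called changes per direction and mutant, the 3 most abundant HSP70 loci and the 5 loci most like each of the pair; loci outside this rule are the neighbours by number and loci with the pair's KEGG entries, named after their values were seen. Promoter and protein sequences were not used here. RefSeq names matched by accession for 8 of 10 BAG, 29 of 77 HSP70 and 11 of 17 partner loci. Alternatives were other pseudocounts, filters, scalings, models and fits, and leaving out each library.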

Additional observations from a re-analysis of the deposited data

Results flagged for a closer look

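The change from R108 of the heat shock cognate 70 kDa locus Medtr7g024580 differed between the mutants by the limma test of hsfa9-2 against hsfa9-1: it was higher than R108 in all 6 mutant libraries, and lower in hsfa9-2 than in hsfa9-1 by a log2 difference of -0.32 (adjusted p = 0.0367). Its libraries held 287.57, 291.86 and 294.13 FPKM in hsfa9-1 and 220.03, 228.67 and 249.63 in hsfa9-2, with no overlap. The adjusted p ranged from 0.0230 to 0.145 over the alternatives and stayed under the threshold in 4 of 19.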

How the results depend on the processing

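No alternative turned the direction of the 2 loci or of a called change against R108 of 32 other named loci. Of these 64 results, 7 crossed the threshold under some alternative (Medtr3g051300, Medtr4g012050 and Medtr8g028190 were not recomputed). Uncalled values changed sign at Medtr7g099680 in hsfa9-1 (to 0.04 with median centring, 0.0094 without the 100 most abundant loci and 0.012 without hsfa9-1 replicate 1), at Medtr2g032910 in hsfa9-2 (to −0.07 without hsfa9-2 replicate 2) and at Medtr4g102740 in hsfa9-2 (to −0.11 without R108 replicate 2 and −0.10 without hsfa9-2 replicate 3). With pseudocounts of 0.5 and 0.1 the log2 changes in hsfa9-1 were −7.49 and −7.75 for Medtr8g028265 and −7.28 and −7.71 for Medtr5g006180, by the scale's own construction. Leaving out each library in turn gave −7.28 to −7.15 and −6.74 to −5.44 for Medtr8g028265 in hsfa9-1 and hsfa9-2, and −6.96 to −6.80 and −6.83 to −5.70 for Medtr5g006180. Called BAG loci then numbered 4 to 8 in hsfa9-1 and 0 to 1 between the mutants. The single HSP70 call between the mutants became 0 with median centring, without the 100 most abundant loci, with the most abundant model only, with the replicate block, with no trend or robust moderation and with only the 2 groups compared, 2 with no filter, and 0 to 1 with a library left out. Over all tested loci the 196 calls between the mutants became 118 with the most abundant model only, 126 with no filter, 104 with only the 2 groups compared, and 83 to 321 with a library left out (321 without hsfa9-2 replicate 1). Median centring gave 5531 higher and 4888 lower in hsfa9-1 against R108, 5634 and 5070 in hsfa9-2 against R108, and 114 and 78 between the mutants. The cause of these shifts was not tested. Replicate numbers did not pair the samples (correlations of deviations of same-numbered libraries −0.125 to 0.096). With the replicate number as a block, 15 HSP70 loci were called in hsfa9-1 and 16 in hsfa9-2, and 145 loci between the mutants. By Pearson correlation, 2 and 3 of the 5 loci most like Medtr8g028265 and Medtr5g006180 were shared. Promoter motifs were not run, since no promoter sequences were used here. The unknown depth of single libraries limits levels near 1 FPKM.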
